A study of Mus musculus with 15 samples.

Results

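The genes described here are 55 genes of mitosis and the G2/M transition, listed by name, of 32372 genes in the deposited matrix. All 55 were present. They were followed in single-cell RNA-seq of microglia enriched with CD45 beads of the cortex and hippocampus. The 15 mice were hTfR KI males (C57BL/6J, 3.5 months old), which carry a human transferrin receptor knock-in. Every mouse received 1 dose of 10 mg/kg of antibody. ATV:4D9 is a mouse TREM2 antibody whose Fc binds the human transferrin receptor, and ATV:RSV is a control antibody on the same transport vehicle. Microglia were collected 1 day after ATV:RSV and 1, 7, 14 or 28 days after ATV:4D9, with 3 mice in each of 5 groups and every one of the 3 batches held 1 mouse per group. The later days had no ATV:RSV mice of their own, so the same 3 control mice entered each comparison with control, and at the later days the antibody and the day of collection cannot be told apart.

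Mitosis is driven by the kinase CDK1 with cyclin A or cyclin B. Polo-like and Aurora kinases then build the spindle and correct its attachments, the kinetochore joins chromosomes to microtubules, and the spindle checkpoint holds back the anaphase-promoting complex (APC/C) until every chromosome is attached. Most transcripts of this machinery accumulate in S phase and G2, are highest at mitosis and are low in resting cells. Adult microglia divide rarely in the undisturbed brain. TREM2 is a microglial surface receptor that signals through DAP12.

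The libraries held 102043 cells and 5667 to 7596 cells per mouse, with 32341960 to 70307384 UMIs (unique molecules counted) per mouse. The median cell held 4975 to 5750 UMIs in the ATV:RSV mice, 8201.5 to 8995.5 in the ATV:4D9 day 1 mice and 4694 to 6117 at the later days. Of the cells, 2579 carried a barcode that another library also held. The 5 microglia markers P2ry12, Tmem119, Cx3cr1, Csf1r and Sall1 summed to 8771 to 9253 counts per 1000000 (CPM) in the ATV:RSV mice and 5658 to 6056 at day 1, and all 5 were found in every group. Among 12 marker lists of other cells, the 4 monocyte markers summed to 4.13 to 10.7 CPM in ATV:RSV and 15.1 to 19.4 CPM at day 1, the 4 oligodendrocyte precursor markers to 0.55 to 0.88 and 1.26 to 1.71 CPM, the 5 endothelial markers to 19.1 to 26.0 and 10.1 to 15.6 CPM, the 5 neuron markers to 8.26 to 10.3 and 4.79 to 6.85 CPM, the 5 oligodendrocyte markers to 44.0 to 58.0 and 31.3 to 35.3 CPM, and the 5 neural progenitor markers to 0.19 to 0.37 and 0.45 to 0.53 CPM. The sums of the border macrophage, neutrophil, T or NK cell, B cell, astrocyte and ependymal lists overlapped between these groups. The part of these marker differences in the results was not tested.

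Promoters are shown for 5 of the genes because they stand for the range of day 1 changes described below, from Top2a, among the highest, through Ccnb2 and Ube2c to Cenpa and Pttg1, which were near or below the control level. Promoters of late cell cycle genes often carry the cell cycle homology region, spelled TTTGAA or less often as TTTAAA, read by the DREAM and MuvB complexes, and CCAAT boxes, read by NF-Y. Each line gives 250 bases before and 50 bases after the annotated start (RefSeq, GRCm38.p6), 5′ to 3′ on the strand of the gene, with capitals for these motifs on either strand. On the opposite strand TTTGAA reads as TTCAAA, the CCAAT box reads as ATTGG, and the other form reads the same. The windows are Top2a (chr11:99024140-99024439, minus strand), Ccnb2 (chr9:70421505-70421804, minus strand), Ube2c (chr2:164769679-164769978, plus strand), Cenpa (chr5:30666636-30666935, plus strand) and Pttg1 (chr11:43425932-43426231, minus strand). In another annotation (GENCODE) the Pttg1 gene spans chr11:43420250-43426251. Its start there lies upstream of the window, which is wholly inside the gene and may not be its promoter.
Top2a: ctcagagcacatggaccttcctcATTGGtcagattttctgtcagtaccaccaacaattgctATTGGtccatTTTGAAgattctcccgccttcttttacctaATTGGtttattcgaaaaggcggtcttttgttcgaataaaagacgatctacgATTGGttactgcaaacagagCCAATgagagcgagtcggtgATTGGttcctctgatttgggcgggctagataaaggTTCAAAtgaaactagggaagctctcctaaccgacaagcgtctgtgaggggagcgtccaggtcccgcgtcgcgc
Ccnb2: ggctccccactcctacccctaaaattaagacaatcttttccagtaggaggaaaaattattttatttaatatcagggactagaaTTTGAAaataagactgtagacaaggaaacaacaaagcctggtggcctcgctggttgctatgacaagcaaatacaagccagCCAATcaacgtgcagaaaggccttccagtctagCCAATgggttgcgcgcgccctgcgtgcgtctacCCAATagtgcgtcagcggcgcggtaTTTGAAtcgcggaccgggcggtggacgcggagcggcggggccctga
Ube2c: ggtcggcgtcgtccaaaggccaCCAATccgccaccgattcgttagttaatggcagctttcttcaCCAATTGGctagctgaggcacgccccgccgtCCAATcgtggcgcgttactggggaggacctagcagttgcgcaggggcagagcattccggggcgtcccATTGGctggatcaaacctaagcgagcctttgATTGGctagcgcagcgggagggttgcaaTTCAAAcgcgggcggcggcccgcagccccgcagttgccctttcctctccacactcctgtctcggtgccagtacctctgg
Cenpa: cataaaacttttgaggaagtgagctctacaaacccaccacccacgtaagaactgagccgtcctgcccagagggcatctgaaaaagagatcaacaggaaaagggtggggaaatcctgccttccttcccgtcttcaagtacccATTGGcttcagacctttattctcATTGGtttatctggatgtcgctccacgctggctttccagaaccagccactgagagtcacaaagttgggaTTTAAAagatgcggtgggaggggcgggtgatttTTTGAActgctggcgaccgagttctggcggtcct
Pttg1: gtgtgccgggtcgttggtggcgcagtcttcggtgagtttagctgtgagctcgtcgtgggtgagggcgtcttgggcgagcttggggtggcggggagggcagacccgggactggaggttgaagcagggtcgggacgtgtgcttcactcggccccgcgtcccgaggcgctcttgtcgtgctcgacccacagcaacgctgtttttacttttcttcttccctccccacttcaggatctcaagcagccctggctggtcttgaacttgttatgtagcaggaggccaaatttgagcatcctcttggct

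Windows were at hand for 46 of the 55 genes, 48 windows in all. TTTGAA stood in 37 of the 48 (77.1%) and in 17.9% of the 32851 windows of all genes, and CCAAT in 36 (75%) and 37.4%. TTTAAA stood in 11 (22.9%) and 13.2%. At least 2 CCAAT boxes stood in 25 windows (52.1%) and in 11.7% of all windows. A window with either form of the first motif and a CCAAT box was found in 34 of 48 (70.8%) and in 10.7% of all. Top2a held 2 copies of TTTGAA and 6 CCAAT boxes, Ube2c held 1 and 6, and Cenpa held 1 TTTGAA, 1 TTTAAA and 2 CCAAT boxes. Pttg1, Ncaph, Mad2l1, Nuf2, Nusap1 and Tacc3 held none of these letters in the window. For Pttg1 the bases before the upstream start were not in the window and were not searched. At day 1 the log2 fold changes of these 6 genes ran from -0.19 to 3.78. The windows of Kif2c, Cdca8, Cdca3 and Kif4, which held TTTGAA, also lay wholly inside the GENCODE gene, downstream of its start, and may not be its promoter.

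To ask which mitotic genes moved after ATV:4D9, UMIs were summed per mouse and tested by limma-voom across all 14260 genes that passed a filter on low counts. All 55 genes passed it, and 50 passed it without the day 1 ATV:4D9 mice, so Aspm, Bub1, Cdc25c, Ncapg and Ttk were in the test through those mice and had to differ. Their calls at day 1, and between day 7 and day 1, are therefore no support. At day 1, 53 of the 55 genes were higher than in ATV:RSV, 1 was lower and 1 was not called. These were the 5 genes and 48 of the other 50. Of all genes tested, 34.7% were called higher and 34.6% lower. The median log2 fold change of the 55 genes was 3.22, with a median of -0.05 over all genes tested. Of the 55 genes 13 rose by more than 4 on the log2 scale, among them Bub1, Ncapg and Ttk, which are no support. In the same 53 genes every day 1 mouse was above every ATV:RSV mouse, which was so for 35.7% of all genes. Within the batches the median log2 ratio was 2.34, 4.09 and 3.47. Of the 55 genes, 11 overlap a coding gene on the opposite strand, among them Ube2c (Tnnc2), Cdc20 (Elovl1), Ccna2 (Exosc9), Ncapg (Lcorl) and Kif4 (Pdzd11), and whether counting used the strand was not given in the sources used here. In these sums more dividing cells and more transcript per cell cannot be told apart. Without the cells that carried 3 or more markers of another cell type, 53 genes were again called higher and 1 lower (34.8% and 34.7% of all genes tested).

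**Figure D1:**
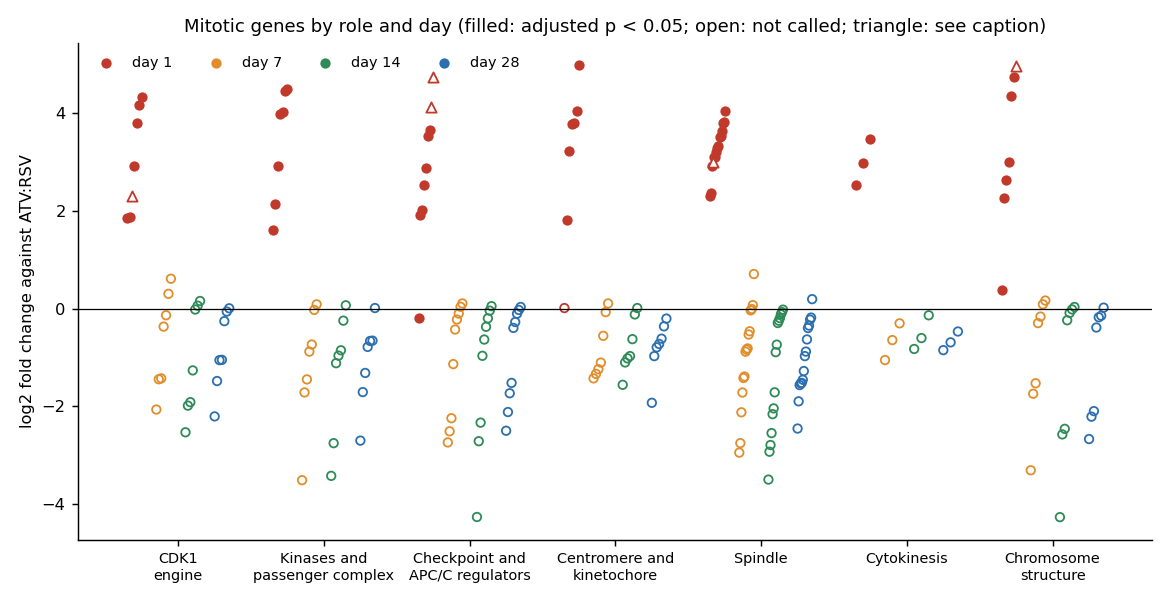
Log2 fold change against ATV:RSV (vertical axis) of each of the 55 genes, grouped by role along the horizontal axis and coloured by day after ATV:4D9 (n = 3 mice per group); filled points passed an adjusted p of 0.05 and open circles did not, and the 5 open triangles of day 1 are genes that passed the count filter only through the day 1 mice. At day 1 the filled points and triangles lie between 0.37 and 4.97, except Pttg1 at -0.19, the 1 open circle of day 1 is Cenpa at 0.01, and at days 7, 14 and 28 every point is open, between -4.26 and 0.71.

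The CDK1 engine comprised Cdk1, its cyclins Ccna2, Ccnb1 and Ccnb2, the phosphatase Cdc25c, which activates CDK1, and the small CDK-binding subunits Cks1b and Cks2. All 7 rose at day 1, by 1.85 to 4.32 on the log2 scale, where 34.7% of all genes tested were called higher. Cdc25c passed the count filter only through the day 1 mice and is no support. Cdk1 was at 4.17, 3.11 and 3.10 CPM in the ATV:RSV mice and at 53.4, 65.0 and 68.1 CPM in the day 1 mice (limma-voom log2 fold change of 4.15 with SE 0.16, adjusted p = 5.0e-12). Ccnb1 was at 0.92, 0.17 and 0.64 CPM and rose to 2.58, 4.48 and 4.64 CPM (2.91, SE 0.43). The cyclin B2 gene Ccnb2 was at 1.51, 0.55 and 0.74 CPM and rose to 2.36, 3.76 and 3.87 CPM (1.85, SE 0.32, adjusted p = 8.0e-05). ATV:RSV replicate 1 had the highest control level of all 3 genes, and day 1 replicate 1 the lowest treated level.
Cks1b rose from 5.97, 6.06 and 5.34 CPM to 77.6, 76.7 and 87.6 CPM (3.79, SE 0.09, adjusted p = 3.2e-14), the lowest adjusted p of the 55 genes. Its paralog Cks2 rose from 23.1, 17.2 and 18.2 CPM to 68.1, 72.7 and 74.2 CPM (1.88, SE 0.09). Neither gene overlapped between the groups. Cdc25c had 1 to 15 UMIs in a control mouse and 22 to 65 in a day 1 mouse (2.30, SE 0.67).

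The mitotic kinases and the chromosomal passenger complex, the Aurora B module that corrects attachments, also rose in full (7 of 7, from 1.62 to 4.48). Called higher were 34.7% of all genes tested. Aurkb, the kinase of that complex, was at 0.94, 0.39 and 0.60 CPM in ATV:RSV and at 11.0, 15.6 and 16.2 CPM at day 1 (4.48, SE 0.35, adjusted p = 1.2e-08). Birc5 (survivin), a subunit of the same complex, rose from 3.31, 0.89 and 1.77 CPM to 20.5, 36.2 and 34.2 CPM (4.02, SE 0.46). Incenp, its scaffold, rose the least of the role, from 8.73, 7.53 and 6.44 CPM to 18.6, 26.3 and 25.8 CPM (1.62, SE 0.14, adjusted p = 3.1e-08). None of the 3 overlapped the control mice. Plk1, which acts from mitotic entry to cytokinesis, was at 0.63, 0.36 and 0.50 CPM and rose to 1.34, 2.79 and 3.17 CPM (2.14, SE 0.38, adjusted p = 1.2e-04). Aurka, Cdca8 and Pbk rose by 2.91, 3.98 and 4.44.

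Of the 9 checkpoint and APC/C regulators 8 rose and Pttg1 was called lower, with 34.7% of all genes tested called higher and 34.6% lower. Bub1 and Ttk passed the count filter only through the day 1 mice and are no support. Bub1, a checkpoint kinase, was at 0.47, 0.17 and 0.33 CPM in ATV:RSV and at 6.86, 9.90 and 8.71 CPM at day 1 (4.73, SE 0.41). Cdc20, the APC/C activator that the checkpoint restrains, rose from 1.35, 0.58 and 0.74 CPM to 5.40, 6.86 and 7.06 CPM (2.88, SE 0.24). Ube2c, the E2 enzyme of the APC/C, was at 4.11, 0.75 and 2.65 CPM and at 5.31, 9.83 and 9.78 CPM (1.91, SE 0.45, adjusted p = 0.0014). Its groups were separated by the gap from 4.11 to 5.31 CPM, and DESeq2 did not call it (adjusted p = 0.055, range over the alternatives 2.1e-04 to 0.055).
Pttg1 (securin), the inhibitor of separase that the APC/C destroys at anaphase, was the only one of the 55 genes called lower, as a share of all UMIs. It was at 58.3, 55.8 and 60.1 CPM in ATV:RSV and at 51.3, 47.3 and 53.9 CPM at day 1 (-0.19, SE 0.06, adjusted p = 0.013). The groups did not overlap, but the call was lost without ATV:RSV replicate 3 (log2 fold change -0.17) and without day 1 replicate 2 (-0.14, the highest adjusted p at 0.081, lowest over the alternatives 4.5e-06). With libraries scaled by their size alone the log2 fold change was -0.43. Per 1000 cells, which were deeper at day 1, it was at 378.2 ± 34.0 UMIs in ATV:RSV and 424.5 ± 32.6 at day 1 (SD, n = 3). Bub1b, Ttk, Mad2l1, Fbxo5 and Cdca3, the other members of the role, rose by 2.01 to 4.11.

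At the centromere and kinetochore 6 of 7 genes rose and Cenpa did not, with 34.7% of all genes tested called higher. Spc24, a subunit of the NDC80 complex that binds microtubules, had the highest log2 fold change of all 55 genes, from 1.62, 0.48 and 0.64 CPM to 19.6, 30.3 and 30.8 CPM (4.97, SE 0.47, adjusted p = 1.2e-07). Its partners Ndc80, Nuf2 and Spc25 rose by 4.03, 3.78 and 3.22, and Cenpe, a kinetochore kinesin, by 3.79. Cenpf, a kinetochore protein of G2 and mitosis, was at 6.03, 2.58 and 4.30 CPM and rose to 10.7, 17.0 and 17.5 CPM (1.81, SE 0.27). Cenpa, the histone H3 variant that marks centromeres and is made in G2, was at 6.15, 4.73 and 4.49 CPM in ATV:RSV and at 4.01, 6.24 and 5.63 CPM at day 1 (0.01, SE 0.19, adjusted p = 0.96). Its groups overlapped, and its sign changed under 8 of 16 alternatives without a call.

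All 15 spindle motors and microtubule-associated proteins rose, by 2.30 to 4.04, as did the 3 cytokinesis genes, with 34.7% of all genes tested called higher. Aspm passed the count filter only through the day 1 mice and is no support. Kif11, the kinesin that pushes spindle poles apart, was at 1.43, 0.94 and 0.86 CPM and rose to 7.01, 11.7 and 9.63 CPM (3.10, SE 0.33, adjusted p = 4.3e-07). Tpx2, a spindle assembly factor that activates Aurora A, rose most within the role (4.04, SE 0.41), and Kif20b and Kif20a least (2.30 and 2.36). Racgap1, of the centralspindlin complex that positions the cleavage furrow, rose from 1.96, 1.21 and 1.43 CPM to 9.65, 13.3 and 13.9 CPM (2.97, SE 0.23). Anln and Ect2, which act at the same furrow, rose by 3.47 and 2.53.

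The 7 chromosome structure genes all rose, over a wide range from 0.37 to 4.96, with 34.7% of all genes tested called higher. Ncapg, the highest, passed the count filter only through the day 1 mice and is no support. Top2a (chr11:98992943-99024189), the topoisomerase that untangles sister chromatids, was at 4.89, 1.71 and 2.46 CPM in ATV:RSV and at 56.4, 90.4 and 84.9 CPM at day 1 (4.74, SE 0.37, adjusted p = 1.2e-08). Mki67 (chr7:135689784-135716361), which coats mitotic chromosomes, was at 3.84, 1.13 and 2.77 CPM and at 32.6, 61.5 and 55.1 CPM. Both were above all control mice in all 3 day 1 mice.
Smc2 and Smc4, the ATPases of condensin, rose from 19.9, 18.5 and 15.8 CPM to 97.6, 126.9 and 113.9 CPM (2.64, SE 0.15) and from 14.1, 10.4 and 10.1 CPM to 43.1, 64.3 and 59.7 CPM (2.25, SE 0.16). The condensin I subunits differed more. Ncapg was at 0.35, 0.17 and 0.21 CPM and rose to 5.94, 9.46 and 8.36 CPM (4.96, SE 0.49), whereas Ncaph was at 14.7, 13.8 and 13.2 CPM and rose to 16.4, 18.7 and 19.3 CPM (0.37, SE 0.09, adjusted p = 0.0017). Ncaph was not called when libraries were scaled by their size alone (0.13, adjusted p = 0.20), and its adjusted p under the other alternatives was lower. Ncapd2, their regulatory partner, rose by 2.99.

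**Figure D2:**
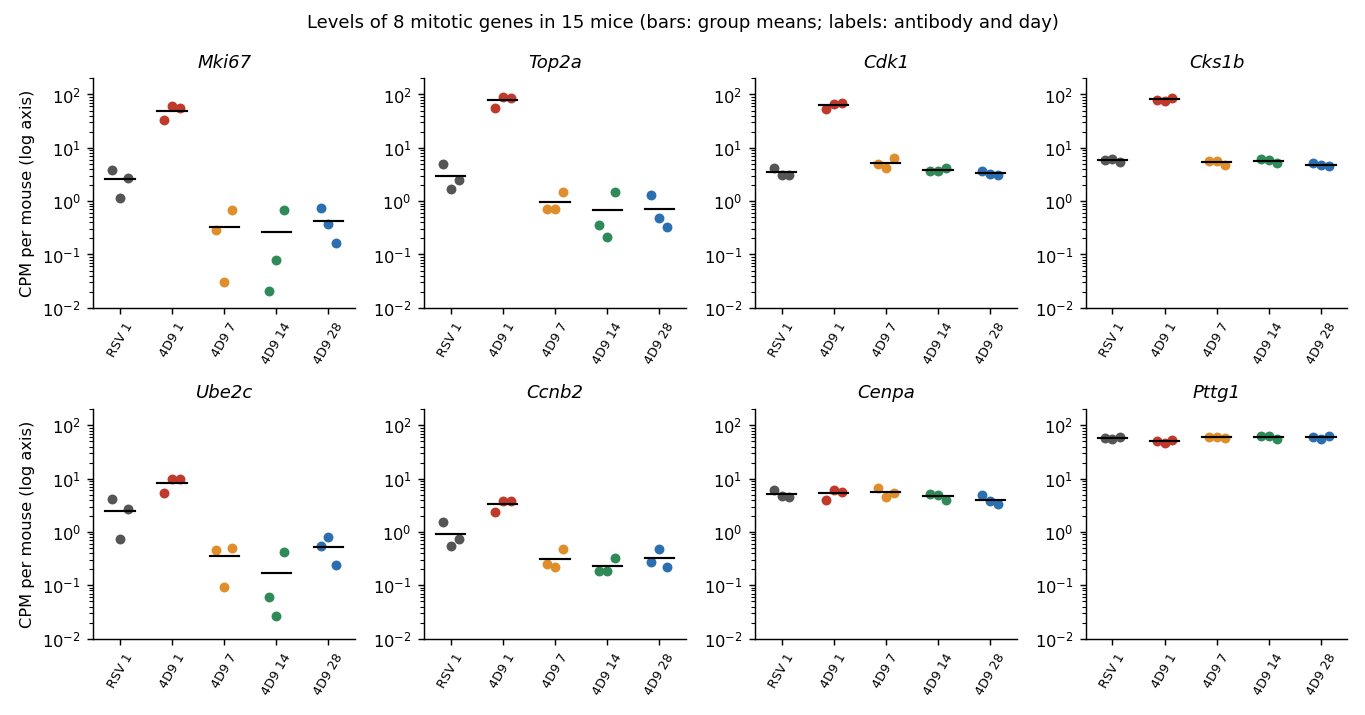
Level per mouse in CPM on a log axis for 8 of the genes in the 5 groups (3 mice each, points; bars are group means). Mki67, Top2a, Cdk1 and Cks1b lie far above the control mice at day 1, Ube2c and Ccnb2 lie less far above them, Cenpa overlaps them and Pttg1 lies just below them; from day 7 on Mki67 lies at 0.02 to 0.74 CPM against 1.13 to 3.84 in ATV:RSV.

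Other gene lists of the cell cycle were counted in the same fit, in which 34.7% of all genes tested were higher at day 1 and 34.6% lower. It was not checked which of these genes passed the count filter only through the day 1 mice. The calls of any such gene are no support, and the counts, medians and extremes of these lists may include such genes. Of 40 further mitotic genes 39 were tested, 37 were higher at day 1 and none lower (median log2 fold change 3.45), from Espl1 (separase, -0.15, adjusted p = 0.19) to Melk (5.41). All 28 DNA replication genes were higher (median 3.66), from Gins4 (0.92) to Mcm10 (7.74). Of 14 transcription regulators of the DREAM, MuvB and NF-Y complexes 9 were higher and 1 lower (median 0.49). Mybl2 (B-Myb), which joins MuvB to switch on mitotic genes, had the highest value of these (4.26, SE 0.43, adjusted p = 2.4e-07), and Rbl2 (p130), the DREAM pocket protein of resting cells, the lowest (-0.71, SE 0.10, adjusted p = 1.3e-05). Of 15 APC/C subunits 8 were higher and 2 lower (median 0.17, Anapc16 at -0.31 to Anapc15 at 1.27), and of 10 cohesin genes 5 were higher and 3 lower (median 0.15, Mau2 at -0.58 to Smc1a at 1.08).

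To see which cells held these transcripts, the members with a UMI were counted in each cell after every cell had been thinned to 3385 UMIs, which left out 10204 shallower cells. In ATV:RSV, 26 of 6410, 9 of 5585 and 11 of 5722 cells held at least 5 of the 55 genes, 0.253% ± 0.133 (SD, n = 3). At day 1 these were 697 of 6838, 1093 of 6993 and 803 of 5651 cells, 13.3% ± 2.82 (SD, n = 3; exact 95% intervals of 9.49% to 10.9%, 14.8% to 16.5% and 13.3% to 15.1%, which cover counting error only). Without thinning the shares were 0.763% and 35.7%. These are not comparable, since the day 1 cells were deeper. Every day 1 mouse was above every ATV:RSV mouse in the thinned cells. Of the thinned cells with 5 genes, 2577 of 2593 at day 1 and 41 of 46 in ATV:RSV also held at least 3 of the 5 microglia markers.
Cells with at least 20 of the 55 genes numbered 14, 1 and 5 in the ATV:RSV mice and 43, 88 and 70 at day 1. The share of cells rose less at this count (0.108% ± 0.102 and 1.04% ± 0.358, SD, n = 3). The median cell over the 5-gene mark held 18 of the genes in ATV:RSV and 8 at day 1. The median UMI count of these cells before thinning was 8629.5 and 10193.

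**Figure D3:**
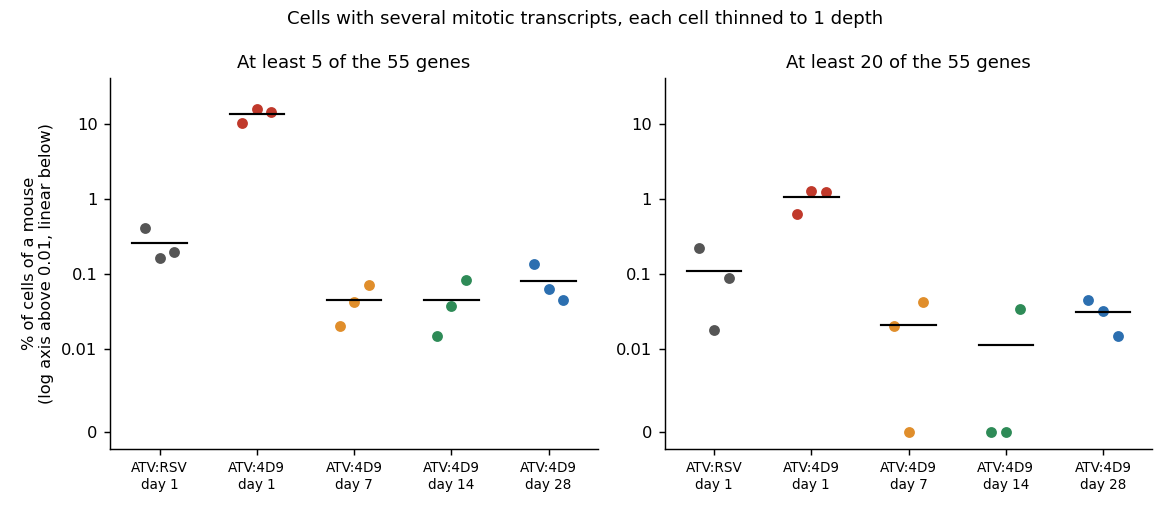
Percent of the cells of each mouse (points, 3 mice per group; bars are means) with at least 5 (left) or at least 20 (right) of the 55 genes, after thinning every cell to the same UMI count, on a log axis that is linear below 0.01. The day 1 mice lie at 10.2% to 15.6% on the left and 0.629% to 1.26% on the right, above all other mice in both panels.

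Most cells over the 5-gene mark at day 1 were also rich in replication transcripts. Cells with at least 5 genes of each list made up 12.6% ± 2.81 of all day 1 cells and 0.102% ± 0.101 of ATV:RSV cells (SD, n = 3), and cells with the mitotic genes alone 0.779% ± 0.0202 and 0.151% ± 0.0324. Of the cells over the mitotic mark, 92.4%, 94.9% and 94.6% also passed the replication mark in the day 1 mice, and 53.8%, 22.2% and 27.3% in the ATV:RSV mice. The cells with the replication genes alone were 35.3% ± 2.09 at day 1 and 0.179% ± 0.0469 in ATV:RSV.

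The genes found in these cells differed in turn. For each gene, cells with at least 5 other members were taken, so that the gene itself did not choose them, though the other members did and no test was made. For 52 of the 55 genes the share of such cells with a UMI was lower at day 1 than in ATV:RSV, where the cells were few and 26 of 46 came from replicate 1. Such cells held fewer of the genes at day 1 to begin with, as given above, and in cells with at least 20 other members 46 of the 55 genes were lower. Exact 95% intervals lay apart, lower at day 1, for 31 genes at the mark of 5. At the mark of 20 they did so for 2, Cdc20 and Cenpa. These intervals pool the cells of 3 mice and cover counting error only. Top2a was found in 57.1% of 2389 such cells at day 1 and in 55.6% of 45 in ATV:RSV, and Smc2 in 54.4% and 50% (44 cells in ATV:RSV). Ube2c was found in 9.46% of 2589 cells and in 45.7% of 46 (22.2% to 53.8% by mouse in ATV:RSV). Cenpa was found in 5.36% and 48.9%, Ccnb2 in 4.63% and 34.8%, Cdc20 in 6.33% and 39.1%, and Plk1 in 3.70% and 23.9%. In the day 1 mice one by one, Ube2c was found in 8.61% to 10.7% and Top2a in 51.2% to 59.5% of the cells.
In cells with at least 20 other members, of which 14 of 20 in ATV:RSV came from replicate 1, the shares were closer for some genes. Ube2c was then in 56.0% of 193 cells at day 1 and 75% of 20 in ATV:RSV, Cenpa in 39.5% of 195 and 80% of 20, Cdc20 in 27.4% of 197 and 60% of 20, and Top2a in 94.0% of 182 and 94.7% of 19. Mki67, Smc2, Aurkb, Ccna2, Cdca8, Fbxo5, Ndc80, Anln and Ncapg were in a larger share of such cells at day 1.

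**Figure D4:**
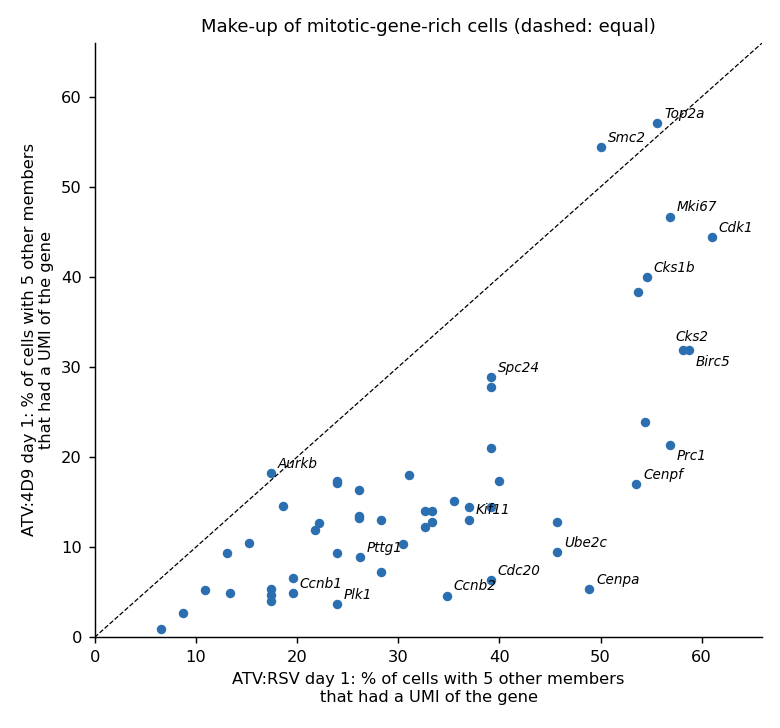
For each of the 55 genes, the percent of thinned cells with at least 5 other members that held a UMI of it, in ATV:RSV (horizontal axis) and ATV:4D9 day 1 (vertical axis), cells of 3 mice pooled; the dashed line marks equal shares. Top2a, Smc2 and Aurkb lie at or above the line and the other 52 genes below it, with Cenpa, Ube2c, Ccnb2 and Cdc20 under 10% on the vertical axis.

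The genes also differed in how much of their transcript lay in those cells. At day 1 the cells with at least 5 other members held more than 50% of the UMIs of 42 of the 55 genes, with a median over genes of 69.0%. They held 95.8% of the Hmmr UMIs, 94.1% of Nusap1, 93.6% of Ube2c and 91.5% of Plk1, but 48.0% of Cdk1, 32.7% of Smc2, 29.2% of Cks1b and 24.6% of Cks2. Pttg1 was the lowest, at 8.10%. In the remaining cells Cdk1 had a UMI in 9.09% at day 1 and 0.752% in ATV:RSV, Cks1b in 15.9% and 1.69%, and Smc2 in 20.3% and 5.43%. Over the 55 genes this share was higher at day 1 for 48 and lower for Ccnb2, Plk1, Fbxo5, Pttg1, Cenpa, Cenpf and Ncaph.
Of these 7 genes, Pttg1 was in 13.7% of the remaining cells at day 1 and 18.5% in ATV:RSV, Ncaph in 3.77% and 5.08%, and Cenpa in 0.385% and 1.39%. Cells with at least 5 other members held 74.8% of the day 1 Cenpa UMIs and 16.4% of those of ATV:RSV. For Ncaph these were 37.9% and 1.17%. These shares depend on the number of such cells, and cells with at least 5 of the genes were 13.3% at day 1 and 0.253% in ATV:RSV. No cell type without these genes was at hand, so the part of free RNA in the shares of the remaining cells was not tested.

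In the deposited clusters, numbered 0, 1 and 2, the genes were concentrated in cluster 2. This cluster held 1.12% to 2.35% of the cells of an ATV:RSV mouse and 87.3% to 93.5% of those of a day 1 mouse. All values by cluster are descriptions, since the clusters were made from the same cells and genes. In ATV:RSV, Top2a was at 111 CPM in cluster 2 and 0.316 CPM in cluster 0, and 40 of 317 thinned cells of cluster 2 held at least 5 of the 55 genes (12.6%). At day 1 this was so for 2593 of 17971 cells of cluster 2 (14.4%), and for 0 of 825 in cluster 0 and 0 of 686 in cluster 1, which allows shares of up to 0.446% and 0.536% (exact 95% upper limits over the pooled cells of 3 mice, which cover counting error only).
Within cluster 2 the day 1 mice were all below the ATV:RSV mice for 25 of the 55 genes and all above them for 2, and the groups overlapped for 28. Of all genes tested, 22.5% were below and 20.9% above in the same way. The median log2 ratio of the mean CPM was -0.88 for the 55 genes and -0.18 over all genes with a UMI in both groups. Ube2c was at 95.0 ± 49.4 CPM in cluster 2 of ATV:RSV and 7.77 ± 2.29 at day 1, Cenpa at 49.9 ± 20.7 and 4.82 ± 1.07, and Ccnb2 at 28.1 ± 8.42 and 3.12 ± 0.731 (SD, n = 3 mice). Top2a was also lower without overlap (86.3 to 145.6 CPM and 54.6 to 85.7 CPM), Cdk1 overlapped (61.7 ± 16.9 and 58.2 ± 5.84), and Cks1b (40.3 ± 10.8 and 74.9 ± 3.66) and Smc2 (80.2 ± 10.6 and 104.6 ± 13.1) were higher without overlap. In the few day 1 cells left in cluster 0, 14 of the 55 genes were higher than in ATV:RSV without overlap, 5 were lower and 36 overlapped. In cluster 1 these were 12, 6 and 37. The same was not counted over all genes, so these counts are not a result about the 55 genes. Only 31 of the 55 in cluster 0 and 32 in cluster 1 had more than 3 UMIs in both groups. Cks1b was above control (14.2 ± 4.25 against 4.93 ± 0.544 CPM in cluster 0), while Mki67 was at 2 UMIs in each of these clusters over all 3 mice.

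**Figure D5:**
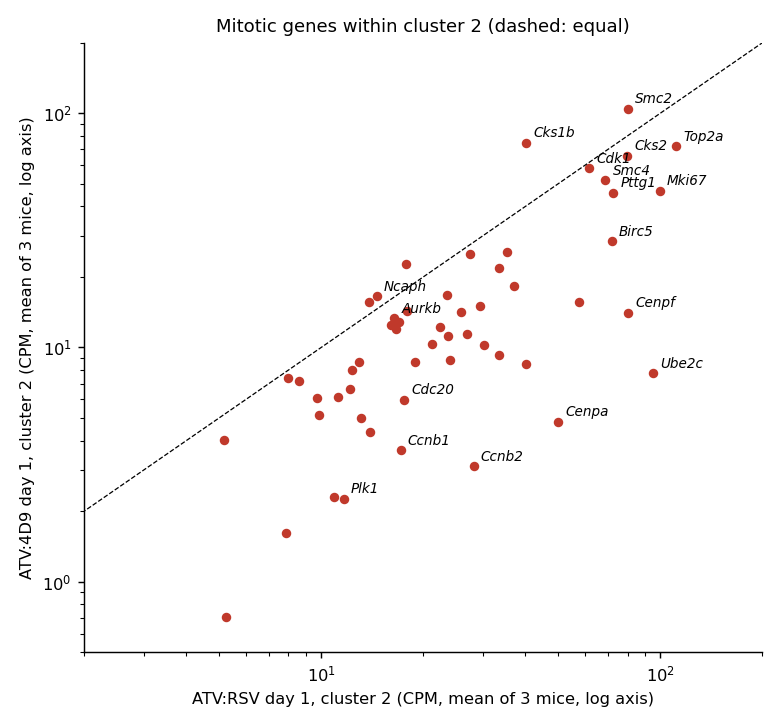
Mean CPM over 3 mice of each of the 55 genes within deposited cluster 2, in ATV:RSV (horizontal axis) and ATV:4D9 day 1 (vertical axis), both on log axes; the dashed line marks equal levels. Cks1b and Smc2 lie above the line, Cdk1 near it, and Ube2c, Cenpa and Ccnb2 far below it.

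By day 7 most of the genes were far below their day 1 level. Against day 1, 53 of the 55 genes were lower at day 7 (the 5 genes that passed the filter only through day 1 and 48 of the other 50; 33.9% of all genes tested were called lower and 33% higher), Pttg1 was higher (0.23, SE 0.06, adjusted p = 0.0049) and Cenpa was not called (0.09, adjusted p = 0.69). The median log2 fold change of the 55 genes was -4.07. Top2a was at 0.71, 0.71 and 1.51 CPM in the day 7 mice (-6.27, SE 0.58, adjusted p = 1.0e-07) and Cdk1 at 4.95, 4.20 and 6.50 CPM (-3.54, SE 0.15, adjusted p = 1.1e-11). Neither overlapped the day 1 mice, and in 53 of the 55 genes all day 7 mice were below all day 1 mice, as in 35.2% of all genes tested.

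Against ATV:RSV none of the 55 genes was called by limma-voom at day 7, 14 or 28. The calls over all genes tested came to 3.98%, 0.4% and 0% on these days. With unadjusted p under 0.05 there were 18, 20 and 24 of the 55 (16.4%, 5.4% and 4% of all genes tested). Without ATV:RSV replicate 1 these were 8, 13 and 5, and without the 5% of cells with most UMIs they were 5, 8 and 1, while the shares over all genes were 15.4%, 5.69% and 4.04%, and 16.5%, 5.41% and 3.69%. DESeq2 called 15 (2 higher, Cdk1 and Cks2), 9 and 2 of them, the rest lower, and 6.11%, 0.926% and 0.0982% of all genes. edgeR called 7 (1 higher, Cdk1), 3 and 0 of them, and 4.45% of all genes at day 7 and 0.414% at day 14. The values lay mostly below control, with 45, 49 and 50 genes of negative log2 fold change and medians of -0.81, -0.85 and -0.78. Over all 14260 genes tested 7320, 7214 and 7033 were negative, with medians of -0.005, -0.001 and 0.001. In 23, 21 and 22 of the 55 genes all treated mice were below all ATV:RSV mice (10.2%, 5.16% and 4.33% of all genes tested). These comparisons share the control mice, of which replicate 1 was the highest for 53 of the 55 genes. Without it the medians were -0.52, -0.55 and -0.41. Marker sums also moved. In the day 7 mice those of microglia (7947 to 8724 CPM), endothelial cells (14.3 to 16.4), neurons (5.92 to 6.87), border macrophages (12.7 to 13.3) and astrocytes (6.11 to 7.62) were below all ATV:RSV mice, and at day 28 those of border macrophages and endothelial cells. Neutrophil markers reached 142 CPM in a day 7 mouse and 3.11 to 9.04 CPM in ATV:RSV. Without the cells with 3 or more markers of another type the medians were -0.80, -0.83 and -0.80. The within-batch medians were -1.31, -0.46 and -0.33 at day 7, -1.45, -0.16 and -0.46 at day 14, and -1.09, -0.31 and -0.84 at day 28, the first of each being batch 1.
Mki67 was at 0.28, 0.03 and 0.67 CPM at day 7, at 0.02, 0.08 and 0.68 CPM at day 14 and at 0.74, 0.38 and 0.16 CPM at day 28. Its log2 fold changes were -3.31 (SE 1.22), -4.26 (SE 1.36) and -2.67 (SE 0.97), with adjusted p of 0.16, 0.43 and 1.0. At day 7 it was called lower by edgeR (-2.79, adjusted p = 0.032). Single mice held as few as 1 Mki67 UMI, in day 7 replicate 2 and day 14 replicate 1. Ube2c was at 0.45, 0.09 and 0.50 CPM at day 7 (-2.74, SE 0.97, adjusted p = 0.14) and Birc5 at 0.48, 0.31 and 0.85 CPM (-1.71, SE 0.86). Ube2c, Cdca3 and Kif4 were called lower at day 7 by DESeq2 (adjusted p = 0.023, 0.014 and 0.0018) and by edgeR (0.025, 0.036 and 0.024). So were Hmmr (DESeq2 adjusted p = 0.0016, edgeR 0.021) and Ndc80 (DESeq2 0.0019, edgeR 0.031). At day 14 Prc1 was called lower by DESeq2 (-2.40, adjusted p = 8.7e-04) and by edgeR (-2.41, 0.034). So were Ube2c (DESeq2 -3.88, adjusted p = 0.0025, edgeR -3.85, 0.029) and Kif4 (DESeq2 -3.58, 0.0018, edgeR -3.47, 0.043). At day 7 Ube2c was also called lower without ATV:RSV replicate 2 (-3.41, adjusted p = 0.032), as were 2.28% of all genes called. Cdca3 was also called at day 7 without the cells with markers of another type (-2.60, adjusted p = 0.047), as were 4.14% of all genes. Kif4 was called at day 7 in a fit of the 6 mice compared (-2.98, adjusted p = 0.033), as were 3.38%.
With batch as a block, day 7 had 4 calls, all lower: Kif4, a chromokinesin (-2.95, adjusted p = 0.023), Cdca3 (-2.15, 0.034), Ndc80 (-1.28, 0.040) and Bub1 (-2.44, 0.043). Day 14 had 1, Kif4 (-3.56, 0.040), and day 28 had none. This fit called 7.11%, 0.856% and 0.014% of all genes tested on these days. These genes were chosen after their values were seen. Kif4 had 0 to 4 UMIs in a day 7 mouse and 0 to 3 in a day 14 mouse, and Bub1 had 0 to 9 in a day 7 mouse. Bub1 passed the count filter only through the day 1 mice. Of the other mitotic genes, Nek2, a centrosome kinase, was also called lower at day 7 (-3.43, adjusted p = 0.031), and none was called at days 14 and 28.
Cdk1 went the other way at day 7, where its 3 mice were above the ATV:RSV mice (4.95, 4.20 and 6.50 against 4.17, 3.11 and 3.10 CPM, 0.61, SE 0.20, adjusted p = 0.12). It was called higher by DESeq2 (adjusted p = 0.0049), by edgeR (0.047), in thinned cells (0.013) and without the 5% of cells with most UMIs (0.024). The fit of thinned cells also called Ccnb2 lower (-2.055, adjusted p = 0.037). Cks2 was at 23.0, 25.5 and 23.5 CPM (0.30, SE 0.10, adjusted p = 0.10) and was called without ATV:RSV replicate 1 (0.44, adjusted p = 0.0063), by DESeq2 (0.31, adjusted p = 0.037) and without the 5% of cells with most UMIs (0.37, adjusted p = 0.028). Of all genes, 4.05% were called at day 7 in thinned cells, 4.1% without the cells with most UMIs and 3.38% without that control mouse. By day 28 both were at the control level, at 3.70, 3.23 and 3.04 CPM and at 21.4, 18.1 and 19.1 CPM.

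Cells with at least 5 of the genes numbered 1, 2 and 5 in the day 7 mice, 1, 2 and 5 in the day 14 mice and 9, 4 and 3 in the day 28 mice. The shares were 0.0444% ± 0.0254, 0.0452% ± 0.0351 and 0.0807% ± 0.0475 (SD, n = 3), below the lowest ATV:RSV mouse (0.161%) in all 9 mice. At the marks of 3, 8 and 20 genes some later mice overlapped the ATV:RSV mice. At 8 genes, for one, the lowest ATV:RSV mouse was at 0.0716% and the highest day 28 mouse at 0.0747%. Without thinning the day 14 mice (0.685% to 0.819%) overlapped the ATV:RSV mice (0.570% to 1.03%), as did the day 28 mice. At least 3 microglia markers were found in 6 of 8, 5 of 8 and 13 of 16, and P2ry12 in 3, 5 and 12. Without cells that carried 3 or more markers of another cell type, 5, 6 and 14 of them were left. In cluster 2, 1.41%, 2.50% and 3.50% of the thinned cells held 5 of the genes at the later days, against 12.6% in ATV:RSV.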

How the data were processed

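Microglia of 15 mice were profiled by 10x 3′ single-cell RNA-seq (mm10, Cell Ranger 4.0.0 per the submitters' processing notes, Seurat). The deposited matrix holds raw UMI counts per gene and cell, already filtered by the authors (every cell had at least 500 genes and at most 10% mitochondrial counts), and a deposited cell table gives library, cluster and percent mitochondrial counts. The 55 genes and all lists were chosen with earlier results of these data known.

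UMIs were summed per mouse, filtered (filterByExpr, minimum count 10, total 15), scaled by TMM and fitted by limma-voom over all 15 mice, with Benjamini-Hochberg adjustment over all genes tested and calls at an adjusted p under 0.05 (R 4.3.3, limma 3.58.1, edgeR 4.0.16). edgeR's quasi-likelihood test and DESeq2 1.42.0 were alternatives. CPM are a gene's counts per 1000000 UMIs of a mouse after TMM scaling, and within clusters per 1000000 UMIs of the cluster without it. Log2 fold changes come from the fit. Doublets were not called; the 405 cells that held 3 or more markers of any other type were left out as an alternative. For shares of cells, each cell was thinned to 3385 UMIs.

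Named genes were 18 members fixed by name, the 5 highest and 5 lowest at day 1, and the extremes of each list. Members called later by limma-voom were to be named, and there were none. Of those called later only by an alternative some are given and others, such as Nuf2, Ckap2l and Cdca8, are not. Per the labels, the replicate number is a batch that holds 1 mouse of each group, so it pairs the mice. Deviations from group means correlated with a mean r of 0.0539 within a batch and -0.0267 between batches. Mice are separate animals. The mark of 20 members was chosen after seeing the data. Another control animal was not analysed here, and 1 microglia marker of the list is not reported here.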

Additional observations from a re-analysis of the deposited data

Results flagged for a closer look

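Levels differed between the ATV:4D9 mice of day 1 and day 7 for 54 of the 55 genes (limma-voom with Benjamini-Hochberg adjustment), 53 lower and Pttg1 higher at day 7, where 33.9% of all genes tested were lower and 33% higher. Of these, Aspm, Bub1, Cdc25c, Ncapg and Ttk passed the count filter only through the day 1 mice and are no support, which leaves 48 lower and 1 higher of the other 50. The median log2 fold change of the 55 genes between these days was -4.07, with 0.02 over all genes tested. Both days were set against the same ATV:RSV mice, which cancel from this contrast, and without day 7 control mice the antibody and the day of collection cannot be told apart.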

How the results depend on the processing

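At day 1 and for day 7 against day 1, 53 or 54 of the 55 genes were called under every alternative, among 43.8% to 74.7% of all genes tested at day 1 and 42.4% to 69.7% between these days. Counts of calls moved at the later days. At day 7, where limma-voom made 0 calls, there was 1 in a fit of the 6 mice compared, 7 by edgeR, 15 by DESeq2, 2 without the 5% of cells with most UMIs, 1 without cells with markers of another type, 2 in thinned cells, and 0 to 1 when a mouse was left out (Cks2 higher without ATV:RSV replicate 1, Ube2c lower without ATV:RSV replicate 2). Over all genes limma-voom called 568, and these fits 448, 635, 871, 574, 588 and 527 in the same order, and 489 and 331 without those control mice. At day 14 there were 3 by edgeR and 9 by DESeq2 (59 and 132 over all genes), and at day 28 there were 2 by DESeq2 (14). The 2 day 7 calls in thinned cells were Cdk1 higher and Ccnb2 lower. The causes were not tested.

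With batch as a block, which pairs the mice, there were 4 calls at day 7, 1 at day 14 and 0 at day 28. Over all genes it made 1014 calls at day 7, 122 at day 14 and 2 at day 28, where the fit without it made 568, 57 and 0. At day 1 and for day 7 against day 1 it called 54 of the 55 genes, as without it.

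The median log2 fold change was -0.50 at day 7, -0.51 at day 14 and -0.32 at day 28 without the 5% of cells with most UMIs, and -0.61, -0.52 and -0.41 in thinned cells. Scaling by library size alone moved the median of all genes at day 1 to -0.29 and of the 55 genes to 2.98. The sign of Cenpa at day 1 changed with library size alone (-0.23), the block (-0.022), without the cells with most UMIs (-0.035) and in thinned cells (-0.18), and ran from -0.14 to 0.23 when a mouse was left out.

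The mean share of cells with at least 5 of the genes moved with the mark. In ATV:RSV it was 1.59% at 3 genes, 0.108% at 20 and 0.763% without thinning. At day 1 it was 28.2% at 3, 7.15% at 8, 1.04% at 20 and 35.7% without thinning. At day 7 it was 1.42% at 3, 0.0326% at 8, 0.0208% at 20 and 0.453% without thinning, at day 14 1.43%, 0.0167%, 0.0111% and 0.754%, and at day 28 1.27%, 0.0404%, 0.0304% and 0.519%.

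At the later days single mice held 0 to a few UMIs of several genes. Day 1 ATV:4D9 cells were deeper than all others, so shares without thinning are not comparable.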
